A study of Mus musculus with 4 samples.

Results

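The 40 genes described here encode the proteins that copy DNA in S phase, from the loading of the replicative helicase to the packaging of the new strands. They were taken as a list of gene symbols that was chosen with earlier results of these data known. Counts of the 40 genes set beside those of all genes thus describe the list and are not a test of it. All 40 were found among the 32285 gene IDs counted in each library. They were measured in cells of embryoid bodies, spheres of differentiating cells made from mouse embryonic stem cells of the R1 line, in 4 droplet libraries of single-cell RNA. The first library came from embryoid bodies of 8 days that had spent 7.33 days in normoxia and then 16 h in hypoxia, and the second from 8 days of normoxia. The others came from 10 days of culture with hypoxia in the final 48 h, after 8 days in normoxia, and from 10 days of normoxia. Each condition was 1 library from 1 cell line, so the differences below were not checked in replicates, and a condition cannot be told apart from its library. The sources used here do not give the oxygen level.

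Replication begins with licensing, when the Mcm2 to Mcm7 ring is loaded onto origins in G1 with the help of Cdc6 and Cdt1. At the entry to S phase Cdc45 and the GINS complex join the ring to make the active helicase, and polymerases, the sliding clamp PCNA, a flap nuclease and a ligase then build both strands. Many of these genes are transcribed in late G1 and S phase under the E2F transcription factors, so their summed RNA is widely used as a marker of cells in S phase, and cells that leave the cycle lose much of it.

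Promoters are shown because E2F factors are known to bind a short GC-rich site in many S phase genes. A part of these factors in the levels below was not tested. RefSeq promoters on GRCm38.p6, which run from 250 bases before to 50 bases after the transcription start, were at hand for 32 of the 40 genes. They were searched on both strands for 4 8-mers of the E2F type, TTTCCCGC, TTTGGCGC, TTTCGCGC and TTTGCCGC. At least 1 of these was found in 15 of the 32 genes (46.9%) and in 704 of all 27025 genes in the table (2.61%). With TTTCCCGC and TTTGGCGC alone these shares were 37.5% and 1.80%. The 21 matches lay between positions -219 and 39, counted from the start, and 5 genes, Dnmt1, Mcm3, Mcm5, Mcm6 and Mcm7, had more than 1 match. CCAAT was in 62.5% of the 32 genes and 41.1% of all genes, TTTGAA in 15.6% and 20.2%, and ACGTG, the core of the hypoxia response element, in 31.3% and 21.8%. A match is a run of letters and not a measured site. For E2f1 the window lies inside the annotated span of the gene, so a match before its annotated start would have been missed. The 6 promoters below are those of 3 helicase genes with 2 or 3 matches, of Pola1, which had the lowest log2 ratio of CPM + 1 after 48 h of hypoxia, and of 2 genes that hold a match and were not lower by 1.5-fold in either hypoxic library. The helicase gene Mcm7, with 2 matches and log2 ratios of -0.76 at day 8 and -1.28 at day 10, is not printed. The capitals mark the matches, and in Mcm6 and Mcm5 a match on each strand overlap each other.
Mcm6 (chr1:128359656-128359955, minus strand): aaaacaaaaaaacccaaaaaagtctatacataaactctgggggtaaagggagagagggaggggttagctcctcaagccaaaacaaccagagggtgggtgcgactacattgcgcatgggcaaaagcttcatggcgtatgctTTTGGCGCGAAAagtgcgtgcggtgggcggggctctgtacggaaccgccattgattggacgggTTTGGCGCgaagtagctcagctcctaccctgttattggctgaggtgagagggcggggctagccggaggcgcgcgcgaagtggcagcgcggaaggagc
Mcm3 (chr1:20820263-20820562, minus strand): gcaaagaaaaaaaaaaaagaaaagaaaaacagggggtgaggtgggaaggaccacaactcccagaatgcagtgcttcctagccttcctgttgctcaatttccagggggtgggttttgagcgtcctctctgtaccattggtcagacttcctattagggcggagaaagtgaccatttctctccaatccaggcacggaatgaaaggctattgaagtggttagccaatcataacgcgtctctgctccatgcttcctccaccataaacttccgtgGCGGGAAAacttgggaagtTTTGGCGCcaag
Mcm5 (chr8:75109259-75109558, plus strand): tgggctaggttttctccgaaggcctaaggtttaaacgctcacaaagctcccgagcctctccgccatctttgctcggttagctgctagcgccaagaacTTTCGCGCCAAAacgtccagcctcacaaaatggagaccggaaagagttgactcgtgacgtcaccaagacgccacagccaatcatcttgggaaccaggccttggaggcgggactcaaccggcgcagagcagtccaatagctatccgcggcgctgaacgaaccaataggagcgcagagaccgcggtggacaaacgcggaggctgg
Pola1 (chrX:93632106-93632405, minus strand): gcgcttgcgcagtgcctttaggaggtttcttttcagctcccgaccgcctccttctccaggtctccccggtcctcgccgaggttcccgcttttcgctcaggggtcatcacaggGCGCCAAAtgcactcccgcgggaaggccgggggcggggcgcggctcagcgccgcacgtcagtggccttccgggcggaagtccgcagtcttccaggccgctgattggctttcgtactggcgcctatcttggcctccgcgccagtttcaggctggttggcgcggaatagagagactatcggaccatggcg
Cdt1 (chr8:122567765-122568064, plus strand): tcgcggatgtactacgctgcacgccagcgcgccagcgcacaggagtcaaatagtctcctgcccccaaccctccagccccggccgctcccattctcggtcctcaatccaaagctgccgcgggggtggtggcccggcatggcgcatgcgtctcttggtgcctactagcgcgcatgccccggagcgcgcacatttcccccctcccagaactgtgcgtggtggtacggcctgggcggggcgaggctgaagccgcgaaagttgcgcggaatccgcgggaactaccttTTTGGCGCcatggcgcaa
Ubr7 (chr12:102757725-102758024, plus strand): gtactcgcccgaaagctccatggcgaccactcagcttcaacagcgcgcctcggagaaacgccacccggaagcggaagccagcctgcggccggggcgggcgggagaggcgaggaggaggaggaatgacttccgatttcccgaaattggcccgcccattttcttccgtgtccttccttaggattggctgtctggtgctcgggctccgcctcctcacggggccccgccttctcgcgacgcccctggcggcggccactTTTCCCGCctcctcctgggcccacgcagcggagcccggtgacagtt

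After the removal of poor barcodes and called doublets the libraries held 3344 cells (16 h hypoxia), 3163 (normoxia, day 8), 4615 (48 h hypoxia) and 2670 (normoxia, day 10), with 62221875 to 84709052 unique molecular identifiers (UMIs, counted RNA molecules) in each. Median UMIs per cell were 18838.5 after 16 h of hypoxia and 23034 in normoxia at day 8, and 12800 after 48 h of hypoxia and 20306 in normoxia at day 10. The 48 h library stood apart from the other libraries in other ways too. Ribosomal protein genes took 29.4% of its UMIs and 18.4% to 20.7% of the UMIs of the other libraries, mitochondrially encoded genes 1.11% and 2.01% to 4.05%, and the nuclear RNA Malat1 was at 27237 counts per 1000000 UMIs (CPM), where the others had 9868 to 16092. Markers of other cell types also differed between libraries. The summed level of 12 macrophage markers was 44.9 CPM after 16 h of hypoxia and 85.4 CPM in normoxia at day 8, and 97.3 CPM after 48 h of hypoxia and 553 CPM in normoxia at day 10. That of 11 erythroid markers was 4614 and 4549 CPM at day 8, and 36.01 and 571 CPM at day 10, in the same order. That of 15 endoderm markers was 2435 and 1903 CPM at day 8, and 1271 and 578 CPM at day 10. None of the markers in these lists was at 0, but fewer endoderm markers reached 5 CPM in hypoxia. At day 8 these were 10 in hypoxia and 13 in normoxia, and at day 10 they were 5 in hypoxia and 10 in normoxia. Cells grouped as endoderm-like below made up 5.83% and 7.65% of cells at day 8, and 1.34% and 2.43% at day 10, in the same order. The 7 pluripotency markers summed to 22.9 to 60.5 CPM. The part of these differences in the results below was not tested, but values within cell classes are given. Among the kept cells 13 barcodes were shared, summed over all pairs of libraries. Most cells of every library, 84.8% to 93.8%, were mesenchymal-like by their markers. Levels below are CPM of summed cells, ratios are hypoxia over normoxia, and log2 ratios are of CPM + 1, where a pair of log2 ratios gives day 8 and then day 10. Intervals are at 95% and cover counting error only, except that an interval of a median reflects the spread over genes.

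After 16 h of hypoxia at day 8, transcripts of most of the 40 replication genes were lower than in normoxia of the same age. The 40 genes together were at 864 CPM (858 to 871) in the hypoxic library and 1631 CPM (1622 to 1640) in normoxia, a ratio of 0.530 (0.525 to 0.535). At least 1.5-fold lower were 34 of the 40 genes, against 10.0% of the 10599 genes whose mean over libraries reached 5 CPM. None of the 40 was at least 1.5-fold higher, against 4.59% of those genes. All 40 log2 ratios were below 0, of which that of Cdt1 turned above 0 with TMM scaling and centring and that of E2f1 with thinned cells, and their median was -0.91 (-1.05 to -0.82), where the median of all 10599 genes was -0.11. TMM scaling, which sets most genes to no difference, moved the median of all genes by 0.22 to 0.10, and left 27 of the 40 genes lower by 1.5-fold.

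After 48 h of hypoxia at day 10 the same genes were lower still relative to normoxia of that age. Together they were at 410 CPM (405 to 414) in the hypoxic library and 1270 CPM (1261 to 1279) in normoxia, a ratio of 0.323 (0.318 to 0.327). At least 1.5-fold lower were 35 genes and none was higher by that much, but here 44.1% of all 10599 genes were lower and 10.4% higher. At least 4-fold lower were 19 of the 40 genes, against 5.44% of all genes. The median log2 ratio was -1.91 (-2.17 to -1.63), where that of all genes was -0.46. Centring on that median left 32 genes lower by 1.5-fold, and so did TMM scaling, which moved the median of all genes by 0.48 to 0.01. Of the 40 genes 17 were under 5 CPM in the 48 h library, and none was in normoxia of either age.

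**Figure D1:**
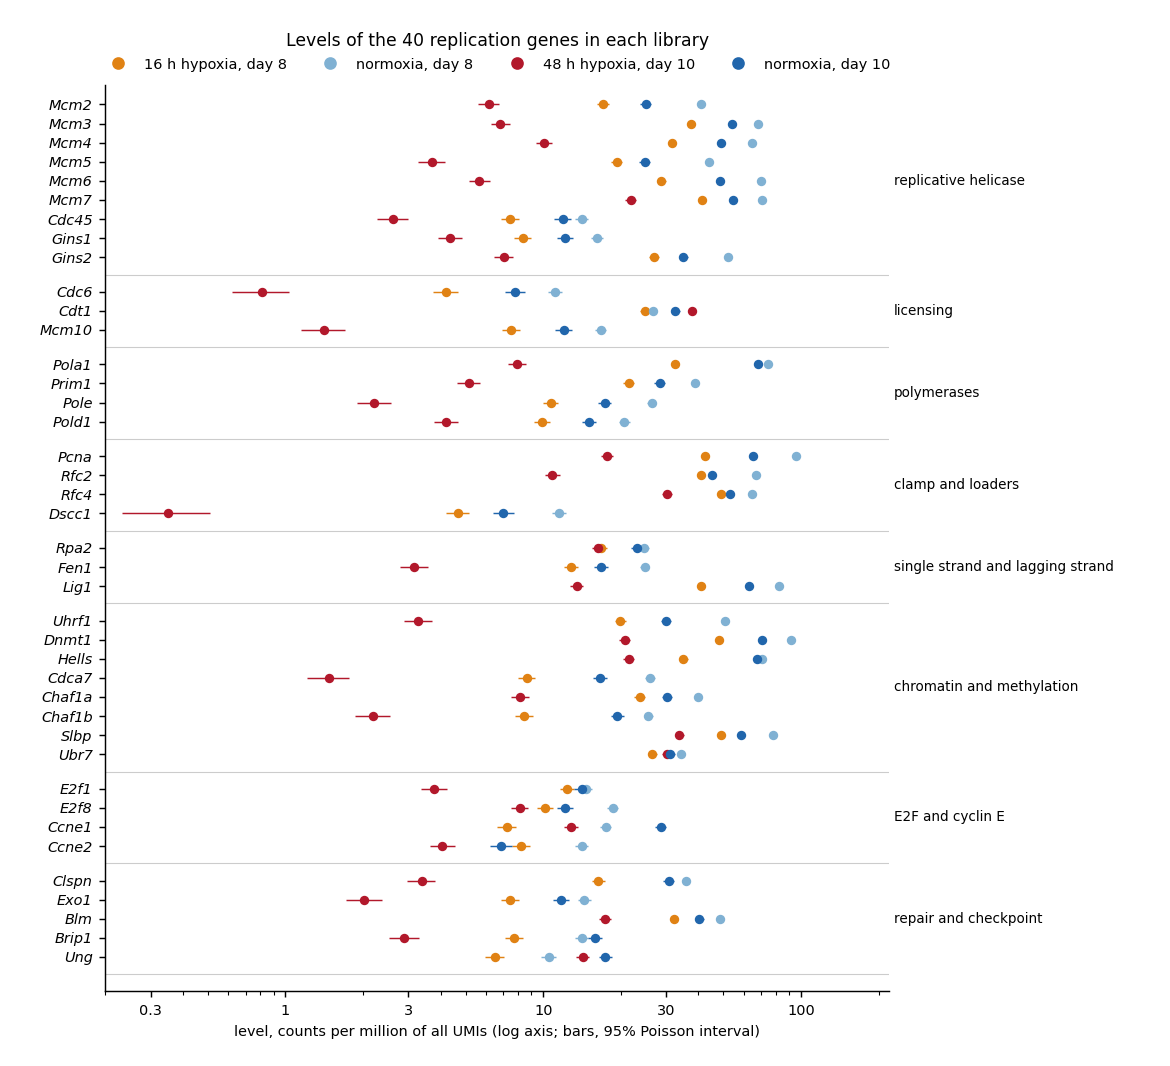
Level of each of the 40 genes in the 4 libraries, in counts per 1000000 UMIs on a log axis, grouped by role, with 95% Poisson intervals as bars. The 48 h hypoxia library (dark red) is lowest for 36 genes, and normoxia at day 8 (light blue) is highest for 36, while Ubr7 varies little (26.5 to 34.2 CPM). The shares of all genes that are lowest or highest in these libraries were not counted.

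The core of the replicative helicase was lower in both hypoxic libraries for all 9 genes listed (median log2 ratio -0.93 at day 8 and -2.16 at day 10). Mcm6 (chromosome 1, 128331590 to 128359664, minus strand on mm10), a subunit of the ring that unwinds DNA, was at 28.7 CPM after 16 h of hypoxia and 69.9 CPM in normoxia at day 8. At day 10 it was at 5.65 CPM after 48 h of hypoxia and 48.6 CPM in normoxia. The ratios were 0.411 (0.392 to 0.432) and 0.116 (0.105 to 0.129), so that its 48 h level was the lowest of the 4 libraries and its level in day 8 normoxia the highest. Among the other ring subunits Mcm3 was at 37.5 CPM after 16 h of hypoxia and 68.4 CPM in normoxia at day 8, and at 6.82 CPM after 48 h of hypoxia and 53.8 CPM in normoxia at day 10. Its log2 ratio was -0.85 at day 8 and -2.81 at day 10, the widest gap between the ages among the 40 genes by log2 ratios of CPM + 1. By plain ratios, 0.548 and 0.127 for Mcm3, the gap was wider for the low gene Dscc1 (0.404 and 0.0502). The log2 ratios of Mcm5 (-1.15 at day 8 and -2.46 at day 10), Mcm4 (-1.01 and -2.17) and Mcm2 (-1.22 and -1.86) lay in between. Mcm7 had the log2 ratios closest to 0 in the ring, -0.76 and -1.28, with 21.9 CPM left in the 48 h library. Of the factors that turn the ring into the active helicase, Cdc45 had log2 ratios of -0.84 and -1.84, the GINS subunit Gins1 of -0.88 and -1.30, and its partner Gins2 of -0.93 and -2.16.

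The licensing genes were not alike. Cdc6, the ATPase that helps load the ring, was at 4.19 CPM after 16 h of hypoxia and 11.1 CPM in normoxia at day 8 and at 0.807 CPM after 48 h of hypoxia and 7.79 CPM in normoxia at day 10 (log2 ratios -1.22 and -2.28). The 48 h value rested on 62 UMIs. Mcm10, needed to start unwinding, had log2 ratios of -1.05 and -2.43. Cdt1 (chromosome 8, 122568015 to 122573554, plus strand), the loading factor that is destroyed once S phase begins and held in check by geminin, differed little between the libraries of an age. It was at 24.7 CPM after 16 h of hypoxia and 26.6 CPM in normoxia at day 8, a ratio of 0.931 (0.876 to 0.990), and at 37.8 CPM after 48 h of hypoxia and 32.6 CPM in normoxia at day 10, a ratio of 1.16 (1.10 to 1.23). Its log2 ratios of -0.10 and 0.21 had opposite signs, the difference between them was not tested, and the day 8 sign turned with TMM scaling (0.12) and with centring (0.02). With TMM scaling its day 10 log2 ratio was 0.70, with centring 0.67, and with each cell thinned to 5000 UMIs 0.41, so that it was past 1.5-fold higher under the first pair of settings. Of all UMIs of the 40 genes, Cdt1 held 2.86% after 16 h of hypoxia and 1.63% in normoxia at day 8, and 9.23% after 48 h of hypoxia and 2.57% in normoxia at day 10. Within cell classes its day 10 log2 ratio was 0.28 in mesenchymal-like cells, but -0.52 in endoderm-like and -0.69 in macrophage-like cells.

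The catalytic subunits of the replicative polymerases were lower in both hypoxic libraries without exception. Pola1 (chromosome X, 93304767 to 93632155, minus strand), the polymerase alpha subunit that extends primers, was at 32.4 CPM after 16 h of hypoxia and 74.8 CPM in normoxia at day 8 and at 7.93 CPM after 48 h of hypoxia and 68.2 CPM in normoxia at day 10. Its ratio was 0.434 (0.414 to 0.455) at day 8 and 0.116 (0.107 to 0.127) at day 10, the lowest log2 ratio of the 40 genes at that age (-2.95). Its levels in the normoxic libraries were close to each other and above both hypoxic ones. Prim1, the primase subunit that makes the RNA primer, had log2 ratios of -0.82 and -2.25. Pole, which copies the leading strand, had log2 ratios of -1.23 and -2.51, and Pold1, which copies the lagging strand, of -0.99 and -1.63.

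Among genes of the sliding clamp and its loaders, Pcna, the ring that tethers polymerases to DNA, was at 42.5 CPM after 16 h of hypoxia and 96.0 CPM in normoxia at day 8. It was at 17.7 CPM after 48 h of hypoxia and 65.0 CPM in normoxia at day 10, and the log2 ratios were -1.16 and -1.82. The loader subunits differed from each other. Rfc2 had log2 ratios of -0.70 and -1.96. Rfc4 was at 48.9 CPM after 16 h of hypoxia and 64.6 CPM in normoxia at day 8 (log2 ratio -0.40, short of 1.5-fold) and at 30.2 CPM after 48 h of hypoxia and 53.1 CPM in normoxia at day 10 (-0.79). Dscc1, part of an alternative clamp loader used in sister chromatid cohesion, was at 4.67 CPM after 16 h of hypoxia and 11.6 CPM in normoxia at day 8 and at 0.352 CPM after 48 h of hypoxia and 7.01 CPM in normoxia at day 10. Its 27 UMIs after 48 h of hypoxia were the fewest of the 40 genes in any library, and its plain ratio there was 0.0502 (0.0327 to 0.0740), the lowest of all 40.

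On the lagging strand, the flap nuclease gene Fen1 was at 12.8 CPM after 16 h of hypoxia and 24.8 CPM in normoxia at day 8 and at 3.16 CPM after 48 h of hypoxia and 16.7 CPM in normoxia at day 10 (log2 ratios -0.90 and -2.09). Lig1, the ligase that seals Okazaki fragments, had log2 ratios of -0.99 and -2.14. Rpa2, a subunit of the protein that coats single-stranded DNA and that also serves in repair, was at 16.7 CPM after 16 h of hypoxia and 24.6 CPM in normoxia at day 8 and at 16.3 CPM after 48 h of hypoxia and 23.1 CPM in normoxia at day 10. Its log2 ratios, -0.53 and -0.47, were alike at the 2 ages, and the one at day 10 was close to the median of all genes (-0.46) and was 0.0042 with TMM scaling. Its levels in the hypoxic libraries were close to each other and below both normoxic ones.

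Genes that copy DNA methylation and assemble nucleosomes held the 3 lowest log2 ratios of day 8. Chaf1b (chromosome 16, 93883901 to 93906115, plus strand), a subunit of the CAF-1 complex that deposits histones on new DNA, was at 8.42 CPM after 16 h of hypoxia and 25.6 CPM in normoxia at day 8, a ratio of 0.329 (0.301 to 0.359), and at 2.19 CPM after 48 h of hypoxia and 19.4 CPM in normoxia at day 10. Cdca7 (chromosome 2, 72476159 to 72486893, plus strand), the partner of the chromatin remodeller Hells, was at 8.65 CPM after 16 h of hypoxia and 26.0 CPM in normoxia at day 8, a ratio of 0.333 (0.305 to 0.363). At day 10 Cdca7 was at 1.47 CPM after 48 h of hypoxia and 16.7 CPM in normoxia. These genes and Uhrf1 (chromosome 17, 56303321 to 56323486, plus strand), the reader of hemimethylated DNA that brings in Dnmt1, had the most negative log2 ratios at day 8, -1.497, -1.48 and -1.31. Uhrf1 was at 19.9 CPM after 16 h of hypoxia and 50.8 CPM in normoxia at day 8 and at 3.28 CPM after 48 h of hypoxia and 30.01 CPM in normoxia at day 10, with a day 10 log2 ratio of -2.86. The partners of these genes had log2 ratios closer to 0. Chaf1a, the large subunit of CAF-1, had log2 ratios of -0.73 and -1.77, Hells of -0.99 and -1.61, and the maintenance methyltransferase gene Dnmt1 of -0.92 and -1.72. Slbp, which binds the stem-loop of histone messages, had log2 ratios of -0.65 and -0.77.

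Ubr7 (chromosome 12, 102757967 to 102777707, plus strand), of the UBR box protein family, was among the genes that differed least. It was at 26.5 CPM after 16 h of hypoxia and 34.2 CPM in normoxia at day 8 (log2 ratio -0.36) and at 30.1 CPM after 48 h of hypoxia and 31.0 CPM in normoxia at day 10. The day 10 ratio of 0.971 (0.913 to 1.03) had an interval that held 1, and its log2 ratio of -0.04 was 0.44 with TMM scaling and 0.42 with centring. Its share of the UMIs of the 40 genes was 3.07% after 16 h of hypoxia and 2.098% in normoxia at day 8, and 7.35% after 48 h of hypoxia and 2.44% in normoxia at day 10.

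The regulators of S phase entry had the median log2 ratio closest to 0 of any role group at day 10 (-0.86). E2f1, the activator of many of these genes, was at 12.3 CPM after 16 h of hypoxia and 14.6 CPM in normoxia at day 8 and at 3.78 CPM after 48 h of hypoxia and 14.1 CPM in normoxia at day 10. Its log2 ratio of -0.23 at day 8 was short of 1.5-fold and turned to 0.11 with cells thinned to 5000 UMIs, and the one at day 10 was -1.66. E2f8, a repressor of the same targets, had log2 ratios of -0.82 and -0.53, so it was the reverse of E2f1 in which age had the lower ratio. The cyclin E genes, whose products activate Cdk2 at the start of S phase, had like ratios at both ages. Ccne1 was at 7.22 CPM after 16 h of hypoxia and 17.4 CPM in normoxia at day 8 (log2 ratio -1.17) and at 12.9 CPM after 48 h of hypoxia and 28.5 CPM in normoxia at day 10 (-1.09). It was 1 of 4 genes that were higher in normoxia at day 10 than in normoxia at day 8 (log2 ratio 0.68). Ccne2 had log2 ratios of -0.71 and -0.64.

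Among repair and checkpoint genes, Clspn (chromosome 4, 126556935 to 126593903, plus strand), the adaptor through which stalled forks activate Chk1, was at 16.4 CPM after 16 h of hypoxia and 35.7 CPM in normoxia at day 8 and at 3.37 CPM after 48 h of hypoxia and 30.6 CPM in normoxia at day 10. Its ratio was 0.459 (0.430 to 0.490) at day 8 and 0.110 (0.0963 to 0.125) at day 10 (log2 -1.08 and -2.86). The exonuclease gene Exo1 had log2 ratios of -0.87 and -2.08, the RecQ helicase gene Blm of -0.57 and -1.17, and Brip1, a helicase that partners Brca1, of -0.79 and -2.12. Ung, the glycosylase that removes uracil from DNA, was at 6.47 CPM after 16 h of hypoxia and 10.5 CPM in normoxia at day 8 (log2 ratio -0.62). At day 10 Ung was at 14.2 CPM after 48 h of hypoxia and 17.4 CPM in normoxia, and its log2 ratio of -0.28 was 0.19 with TMM scaling as well as with centring. Over all cells Ung was thus higher at day 10 than at day 8 in hypoxia as in normoxia, with age log2 ratios of 1.03 between the hypoxic libraries and 0.68 between the normoxic ones. Within cell classes its day 10 log2 ratio of hypoxia over normoxia was -0.29 in mesenchymal-like cells. In endoderm-like cells it was -2.44 and in macrophage-like cells -0.91, both on few UMIs.

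Annotated genes that are also counted overlap the spans of 13 of the 40 genes, all on the opposite strand except a sense intronic gene within Chaf1b. The sources used here do not give whether the counting used strand, so the levels of Mcm7, Cdc45, Gins2, Pole, Rfc2, Rfc4, Dscc1, Fen1, Lig1, Chaf1a, Chaf1b, E2f8 and Ccne2 are uncertain by the UMIs they may share with such genes.

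The 2 hypoxia comparisons share no library, so their ratios can be set side by side. Lower by at least 1.5-fold in both were 32 of the 40 genes and 7.76% of all 10599 genes. The log2 ratio was more negative at day 10 for 33 of the 40 genes and for 68.0% of all genes. The median of the day 10 minus day 8 difference was -1.10 for the 40 genes and -0.33 for all genes, and 32 of the 40 lay below the median of all genes. The 7 genes whose log2 ratio was not more negative at day 10 were Cdt1, Ubr7, Ung, Rpa2, E2f8, Ccne1 and Ccne2, which thus hold 3 of the 4 regulators of S phase entry. Exposure and age differed together here, and the difference between the 2 ages was not tested. Of the genes with a promoter in the table, the 15 with an E2F-type match had a median log2 ratio of -0.99 at day 8 and -2.28 at day 10, and the 17 without a match -0.82 and -1.77. E2f1 was counted among the 17, but its window (chromosome 2, 154569377 to 154569676) lies inside the gene, whose annotated start is at 154569892 on the minus strand. Whether E2f1 holds a match before that start was not searched. The ranges of these sets at day 10 overlapped, -2.95 to 0.21 with a match and -2.68 to -0.28 without, and Cdt1 and Ubr7, whose promoters are printed above, lay at the top of the first. The difference between these sets was not tested, and a match does not tell which genes E2F factors bind.

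**Figure D2:**
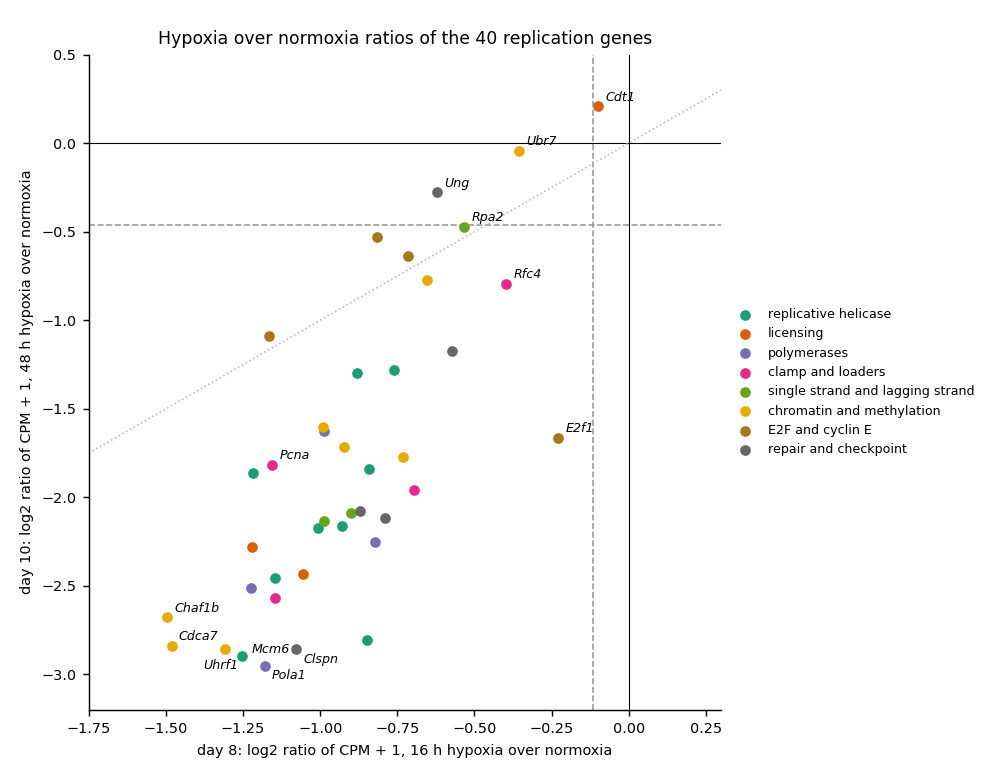
Log2 ratio of hypoxia over normoxia for each of the 40 genes, with 16 h at day 8 across and 48 h at day 10 upwards, coloured by role. Dashed lines mark the medians of all genes (-0.11 and -0.46) and the dotted line equal ratios. Points for 33 genes lie below the dotted line, while Cdt1, Ubr7, Ung and Rpa2 sit at the upper right.

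Over all cells of a library, the summed ratio of the 40 genes was nearer to 1 with age alone than with hypoxia at either age. Within cell classes the age ratio in normoxia was 0.777 in mesenchymal-like, 0.889 in endoderm-like and 0.486 in macrophage-like cells. Over all cells in normoxia the 40 genes were together at 1270 CPM at day 10 and 1631 CPM at day 8, a ratio of 0.778 (0.772 to 0.785). At least 1.5-fold lower at day 10 were 6 of the 40 genes (8.22% of all genes) and 2 were higher (7.94%), with a median log2 ratio of -0.39 where all genes had -0.08. The count of 6 was 13 with cells thinned to 5000 UMIs, 3 with TMM scaling and 2 with a pseudocount of 10 CPM. The genes with the lowest log2 ratios with age were Ccne2 (-0.94), Mcm5 (-0.80), Uhrf1 (-0.74) and Mcm2 (-0.69), and the highest were Ung (0.68) and Ccne1 (0.68). Between the hypoxic libraries the 40 genes were at 410 CPM after 48 h and 864 CPM after 16 h, with 33 genes lower (41.6% of all genes) and 3 higher (10.0%), namely Ung, Ccne1 and Cdt1. Their median was -1.46 where all genes had -0.42. TMM scaling moved the median of all genes by 0.12 with age and by 0.38 between the hypoxic libraries. These comparisons share libraries with the hypoxia comparisons and are not independent of them. The order from normoxia at day 8, normoxia at day 10, 16 h hypoxia to 48 h hypoxia, highest first, was met by 34 of the 40 genes. The share of all genes that met this order was not counted, so it cannot be called particular to the 40 genes.

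Replication transcripts were then counted in single cells. So that depth was equal, each cell was thinned to 5000 UMIs, which left out 4.96% of cells after 16 h of hypoxia and 2.21% in normoxia at day 8, and 13.4% after 48 h of hypoxia and 6.07% in normoxia at day 10. A mean of 3.91 UMIs of the 40 genes per cell remained after 16 h of hypoxia and 7.56 in normoxia at day 8, and 2.00 after 48 h of hypoxia and 5.74 in normoxia at day 10. Without thinning the means were 20.2 and 43.7 at day 8, and 6.82 and 29.6 at day 10, in the same order. Cells rich in these transcripts, with at least 10 of their 5000 UMIs from the 40 genes, made up 8.90% (7.94% to 9.95%) of cells after 16 h of hypoxia and 27.9% (26.3% to 29.5%) in normoxia at day 8. At day 10 they made up 0.801% (0.548% to 1.13%) after 48 h of hypoxia, 32 cells, and 18.5% (17.0% to 20.04%) in normoxia. The level of 10 UMIs is a point on a continuous range, with 1.55% to 16.3% of cells of a library lying next to it. No cell class known to lack these transcripts was at hand. In erythroid-like cells, at median depths of 13522.5 and 17820 UMIs, the share was 2.48% (0.514% to 7.07%) after 16 h of hypoxia, 3 of 121 thinned cells. In normoxia at day 8 the share was 8.89% (3.92% to 16.8%), 8 of 90 thinned cells, and these intervals overlap.

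Both the middle and the upper end of the distribution lay lower in hypoxia. At day 8 the median cell had 3 UMIs of the 40 genes in hypoxia and 5 in normoxia, and the cell at the 90th percentile had 9 in hypoxia and 17 in normoxia. At day 10 the median was 2 in hypoxia and 3 in normoxia, and the 90th percentile 4 in hypoxia and 15 in normoxia. Among the cells with at least 10 such UMIs the mean was 15.3 after 16 h of hypoxia and 16.1 in normoxia at day 8. After 48 h of hypoxia it was 12.3, and 17.5 in normoxia at day 10. In the cells under that level it was 2.80 after 16 h of hypoxia and 4.24 in normoxia at day 8, and 1.91 after 48 h of hypoxia and 3.07 in normoxia at day 10. The cells on either side of that level were chosen by the same UMIs, so these means are bounded by it and do not compare levels within like cells.

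**Figure D3:**
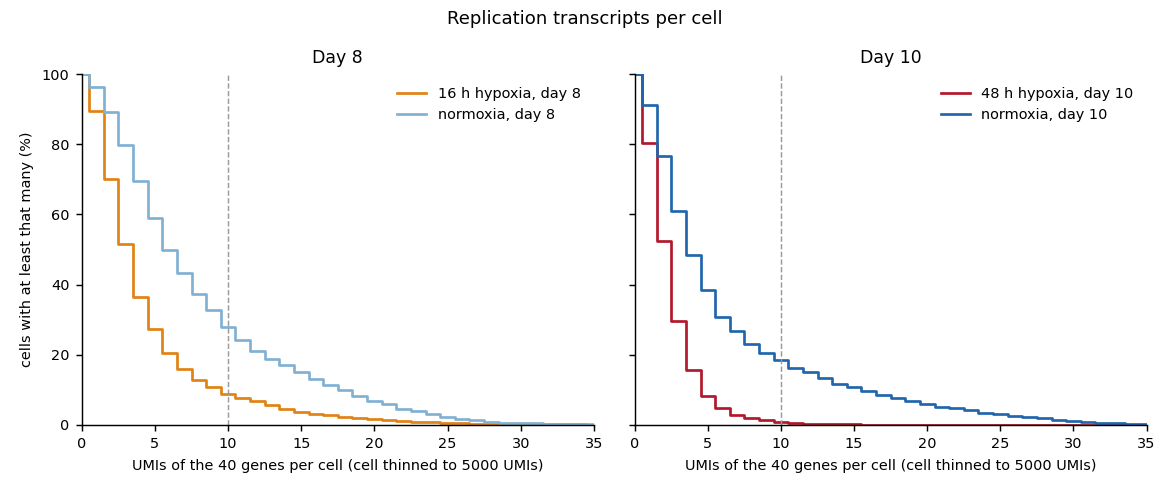
Share of cells, in percent, with at least a given number of UMIs from the 40 genes after each cell was thinned to 5000 UMIs, at day 8 and day 10. At the dashed line of 10 UMIs the hypoxic curves stand at 8.90% and 0.801% and the normoxic curves at 27.9% and 18.5%.

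A list of 40 genes of G2 and mitosis was counted in the same thinned cells. Cells with at least 10 of its UMIs made up 29.3% after 16 h of hypoxia and 44.1% in normoxia at day 8, and 10.8% after 48 h of hypoxia and 28.0% in normoxia at day 10. Cells past 10 for the G2 and mitosis list alone made up 22.2% after 16 h of hypoxia and 24.1% in normoxia at day 8. At day 10 these were 10.1% after 48 h of hypoxia and 14.7% in normoxia. Past 10 for both lists were 7.08% after 16 h of hypoxia and 20.01% in normoxia at day 8, and 0.726% after 48 h of hypoxia and 13.3% in normoxia at day 10. Of the cells past 10 for G2 and mitosis, the share also past 10 for the replication genes was 24.1% after 16 h of hypoxia and 45.4% in normoxia at day 8, and 6.71% after 48 h of hypoxia and 47.5% in normoxia at day 10. Of the cells past 10 for the replication genes, the share also past 10 for G2 and mitosis was 79.5% after 16 h of hypoxia and 71.7% in normoxia at day 8, and 90.6% of 32 cells after 48 h of hypoxia and 71.9% in normoxia at day 10. The first of these shares is lower in hypoxia and the second higher, while cells past 10 for the replication genes were themselves fewer in hypoxia at both ages.

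Cells were also grouped by cell type markers, after clustering that left out cell cycle and hypoxia genes. In mesenchymal-like cells, marked by collagens, decorin and related genes, the 40 genes together were at 810 CPM after 16 h of hypoxia and 1599 CPM in normoxia at day 8. At day 10 they were at 403 CPM after 48 h of hypoxia and 1242 CPM in normoxia. Lower by 1.5-fold were 36 of the 40 genes at day 8 (10.4% of all genes in these cells) and 35 at day 10 (43.7%). Different clusters made up this class in each library. Clusters 0, 1, 7 and 14 held cells of the 48 h library almost alone, clusters 6, 9 and 12 those of normoxia at day 10, and cluster 2 those of the 16 h library. The clusters with at least 50 cells in both libraries of an age allowed a closer comparison. At day 8 the 40 genes were at 1357 CPM in hypoxia and 2018 CPM in normoxia in cluster 3, at 736 and 1265 CPM in cluster 4, and at 503 and 1092 CPM in cluster 5. They were at 945 CPM in hypoxia and 1907 CPM in normoxia in cluster 8, and at 1032 and 1906 CPM in cluster 10, so hypoxia was lower in each of the 5. At day 10 a single cluster of few UMIs per cell, cluster 16, was shared, at 295 CPM in hypoxia and 970 CPM in normoxia.

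Endoderm-like cells, which express genes such as Ttr and Afp, differed less at day 8, where the median of all genes was -0.04. There the 40 genes were at 1542 CPM (1507 to 1577) in 195 cells after 16 h of hypoxia and 1854 CPM (1822 to 1888) in 242 cells in normoxia. Only 5 genes were at least 1.5-fold lower, near the 9.59% of all genes in these cells, namely Cdca7 (log2 ratio -0.87), Pold1 (-0.87), Mcm2 (-0.63), Ccne1 (-0.63) and Lig1 (-0.62). The share of cells with at least 10 UMIs of the 40 genes was 31.4% (24.3% to 39.3%) in hypoxia and 33.2% (27.0% to 39.8%) in normoxia in 1 library each, with intervals over cells that cover counting error only. At day 10 the same class was at 666 CPM (611 to 725) in 62 cells after 48 h of hypoxia and 1648 CPM (1581 to 1718) in 65 cells in normoxia, with 33 genes lower (36.6% of all genes). Higher was 1 gene, Ccne1 (log2 ratio 0.78), where 14.5% of all genes were higher. Its levels of 21.0 CPM in hypoxia and 11.9 CPM in normoxia rested on few UMIs, since the class held 809059 and 1349238 UMIs. Median depths of these cells at day 10 were 6079.5 UMIs in hypoxia and 19156 in normoxia, and whether the day 8 ratio differed between endoderm-like and mesenchymal-like cells was not tested.

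Among blood classes, the comparisons with at least 50 cells in both libraries were erythroid-like cells at day 8 and macrophage-like cells at day 10, and the 40 genes were lower in hypoxia in each. Erythroid-like cells, which carry hemoglobins, were at 426 CPM in 154 cells after 16 h of hypoxia and 807 CPM in 109 cells in normoxia at day 8, with 27 of the 40 genes lower (25.5% of all genes in these few cells) and 0 higher (21.3%). Macrophage-like cells were at 607 CPM (569 to 647) in 119 cells after 48 h of hypoxia and 1603 CPM (1565 to 1643) in 183 cells in normoxia at day 10, with 36 of the 40 genes lower (28.0%). With age in normoxia they were at 1603 CPM at day 10 and 3296 CPM (3214 to 3380) in 51 cells at day 8, with 37 genes lower (21.9%). After 16 h of hypoxia there were 38 such cells, under the 50 needed for a comparison, at 1952 CPM. With under 50 cells, erythroid-like cells at day 10 were at 319 CPM (170 to 545) in 10 cells after 48 h of hypoxia and 184 CPM (123 to 264) in 11 cells in normoxia. Megakaryocyte-like cells were at 967 CPM in hypoxia and 1528 CPM in normoxia at day 8, and at 279 CPM in 43 cells in hypoxia and 288 CPM in 11 cells in normoxia at day 10. Cardiomyocyte-like and endothelial-like cells also numbered under 50 in each library.

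**Figure D4:**
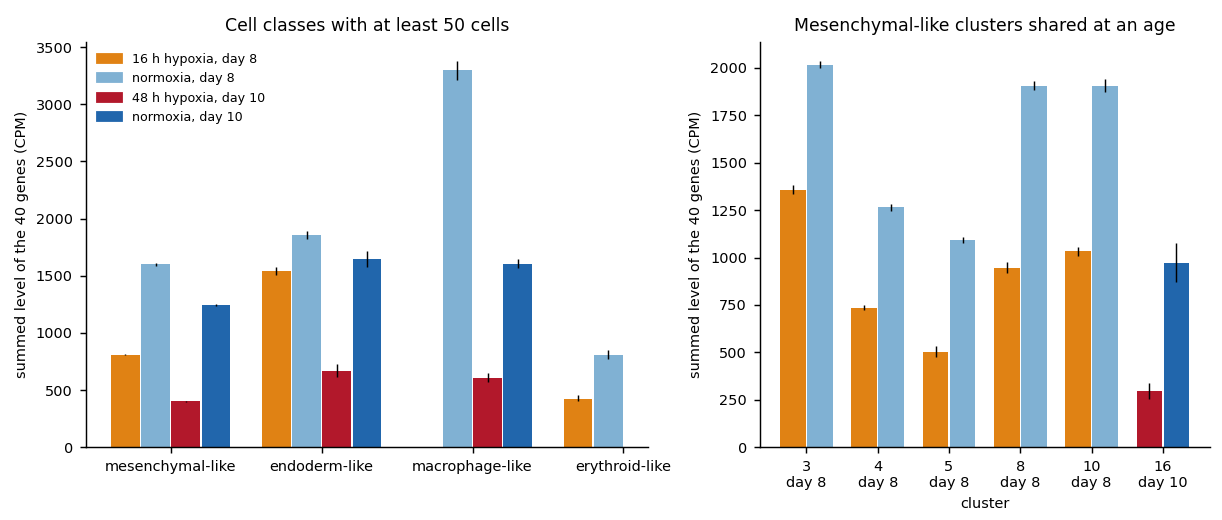
Summed level of the 40 genes in counts per 1000000 UMIs, with 95% Poisson intervals as bars, by cell class (left; classes with under 50 cells in a library not drawn) and in mesenchymal-like clusters with at least 50 cells in both libraries of an age (right). Each hypoxic bar is shorter than its normoxic neighbour, least so for endoderm-like cells at day 8 (1542 and 1854 CPM).

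The rest of the pathway was described with 4 further lists. Of all 10599 genes 10.0% were lower and 4.59% higher by 1.5-fold at day 8, with a median of -0.11. At day 10 these shares were 44.1% and 10.4%, with a median of -0.46. Of 46 other replication genes 21 were lower and 1 higher by 1.5-fold at day 8 (median -0.57), and 34 lower and 0 higher at day 10 (median -1.25). Timeless, which with Tipin protects the moving fork, was at 1.68 CPM after 48 h of hypoxia and 21.5 CPM in normoxia at day 10 (log2 ratios -1.02 at day 8 and -3.07 at day 10). Next to it were the clamp loader gene Rfc5 (log2 ratios -0.56 and -2.52), the fork protein gene Wdhd1 (-1.30 and -2.30) and the polymerase epsilon subunit gene Pole2 (-1.23 and -2.08). Rpa3 (log2 ratios -0.74 and -2.001) and the histone chaperone gene Asf1b (-0.94 and -1.95) followed. Geminin (Gmnn), the inhibitor of Cdt1, was named after its values were seen, at 57.4 CPM after 16 h of hypoxia and 85.8 CPM in normoxia at day 8 (log2 ratio -0.57) and 18.8 CPM after 48 h of hypoxia and 60.96 CPM in normoxia at day 10 (-1.64).

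Checkpoint and recombination genes followed a like course. At day 8, 14 of 24 were lower (10.0% of all genes) and 0 higher (4.59%), with a median of -0.63. At day 10, 20 were lower (44.1% of all genes) and 0 higher (10.4%), with a median of -1.43. The recombination genes Brca2 (log2 ratios -0.85 and -2.36) and Brca1 (-0.96 and -2.09) were among them. So were Rad50 (log2 ratios -0.40 and -2.36) and the Fanconi anaemia gene Fancd2 (-0.91 and -2.06). The G2 and mitosis list had 9 of 40 lower and 0 higher at day 8 (median -0.40) and 35 lower and 0 higher at day 10 (median -1.51), beside the same shares of all genes. The proliferation marker gene Mki67 was at 87.0 CPM after 16 h of hypoxia and 131 CPM in normoxia at day 8 (log2 ratio -0.59) and at 13.3 CPM after 48 h of hypoxia and 128 CPM in normoxia at day 10 (-3.17). Cenpf (log2 ratio -2.27), Kif2c (-2.15), Nuf2 (-2.13), Nusap1 (-2.07) and Aspm (-2.06), which act at kinetochores and the spindle, were next at day 10. At day 8 the replication genes thus had the lower median (-0.91 and -0.40), a difference that was not tested.

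Genes that control the passage from G1 to S phase differed in both directions. Of 28 such genes 4 were lower and 2 higher at day 8 (median -0.27), and 10 lower and 5 higher at day 10 (median -0.37, or 0.11 with TMM scaling). Of all genes 10.0% were lower and 4.59% higher at day 8, and 44.1% lower and 10.4% higher at day 10, so the share of lower genes in the list was near that of all genes at day 8 and below it at day 10. Of 7 genes of the list for inhibitors of cyclin-dependent kinases, 2 were higher and 0 lower by 1.5-fold at day 8, and 3 were higher and 2 lower at day 10. Cdkn2b was at 46.2 CPM after 16 h of hypoxia and 27.6 CPM in normoxia at day 8 (log2 ratio 0.72) and at 104 CPM after 48 h of hypoxia and 29.97 CPM in normoxia at day 10 (1.76). Cdkn2d had log2 ratios of 0.42 and 1.32, Cdkn1a of 0.44 and 0.71, and Cdkn1b of 0.83 and 0.26, while Cdkn1c had log2 ratios of -0.30 and -0.76. Cdkn2c had log2 ratios of -0.57 and -1.51 and Cdkn2a of 0.25 and -0.13, both named after their values were seen. Ccnd1, the cyclin D1 gene that responds to growth factors, had log2 ratios of -0.77 and -2.35, and the Rb family genes Rbl1 of -1.14 and -2.14 and Rbl2 of -0.10 and -1.04. Ccna2, the S phase cyclin gene, had log2 ratios of -0.64 and -1.03. Myc was at 6.16 CPM after 16 h of hypoxia and 9.18 CPM in normoxia at day 8 (log2 ratio -0.51) and at 14.6 CPM after 48 h of hypoxia and 6.69 CPM in normoxia at day 10 (1.02).

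**Figure D5:**
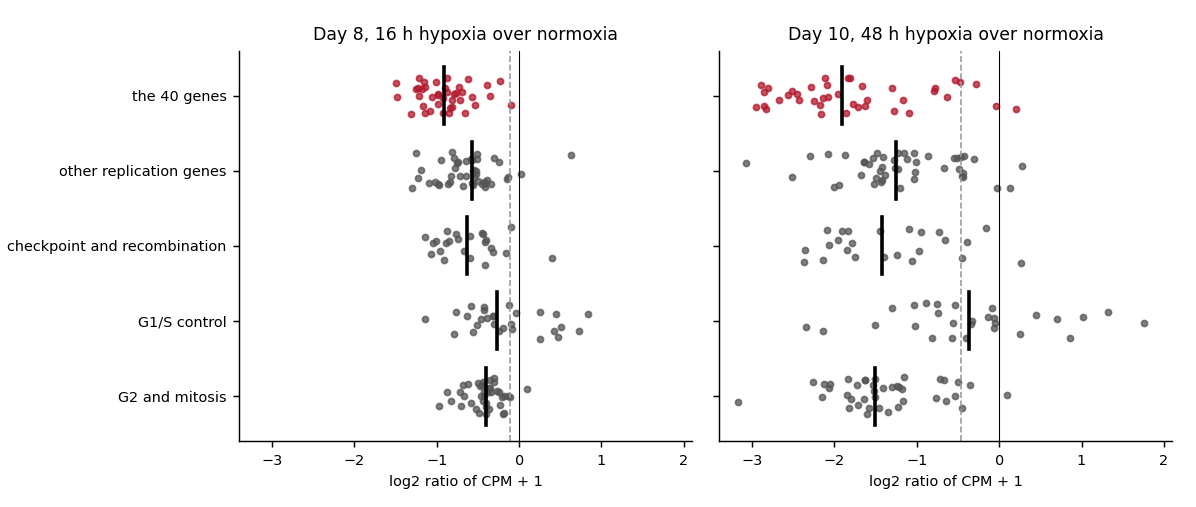
Log2 ratio of hypoxia over normoxia for each gene of 5 lists at day 8 (left) and day 10 (right), with 1 point per gene, the list median as a black bar and the median of all genes as a dashed line. The 40 replication genes have the lowest median at both ages (-0.91 and -1.91), and the G1/S control list spreads to both sides of 0.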

How the data were processed

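Single-cell RNA was counted in 4 droplet libraries of embryoid bodies from R1 mouse embryonic stem cells, 1 per condition, taken from the labels. The deposited values are counts of UMIs per gene and cell barcode, made with Cell Ranger 7.1.0 on mm10 per the submitters' processing notes; strand use and the counting of introns were not stated there. Barcodes were kept if they held 500 or more genes and no more than 15% mitochondrial UMIs, and cells called by Scrublet (in scanpy 1.11.5) were removed. It called 1 to 9 cells per library where 57 to 170 doublets were expected, so the doublets that remain were not measured.

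UMIs were summed per library and scaled to counts per 1000000 UMIs, with a pseudocount of 1 CPM in log2 ratios. A gene was counted as lower or higher past 1.5-fold, and genes whose mean reached 5 CPM served as background. Level intervals are exact Poisson, ratio intervals exact conditional binomial and share intervals Clopper-Pearson, all at 95%. The interval of a median uses order statistics over the genes. No test between conditions was possible with 1 library each. TMM factors came from edgeR 4.0.16 in R 4.3.3. Cells were thinned without replacement to 5000 UMIs, leaving out shallower cells.

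Cells were clustered on 2000 variable genes (30 principal components, 15 neighbours, Leiden resolution 1). A cluster took the name of the marker list that had a mean log2 fold of at least 1 and at least 3 markers that were 2-fold higher and found in 10% of its cells. The fold was first taken against all other clusters. Clusters left unnamed were then compared only with the clusters already named as other than mesenchymal-like. Further rules on the top 10 genes of a cluster and on its depth applied. Classes with at least 50 cells in both libraries were compared. On simulated counts for the day 8 comparison, with 200 of 10848 genes changed 2-fold, 100% of the changed genes were called. These counts held counting error only and no variation between libraries, so they check the calculation and not the calls on the real libraries.

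The 40 genes and the other lists were chosen with earlier results of these data known. Full values were given for the 4 genes lowest and the 4 highest in each hypoxia comparison, at least 1 gene of each role group and any gene with opposite signs. From each other list up to 6 genes whose mean reached 5 CPM and which had the largest absolute log2 ratio were named, as were Cdkn1a, Cdkn1b, Cdkn1c, Ccnd1, Myc and Mki67. Some genes that this rule names are not reported here. Other scalings, pseudocounts, filters, thinning depths and doublet removal were tried.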

Additional observations from a re-analysis of the deposited data

Results flagged for a closer look

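Over all cells of a library, Cdt1 was the only one of the 40 genes whose log2 ratio of hypoxia over normoxia had opposite signs at the 2 ages. It was -0.10 after 16 h of hypoxia at day 8 and 0.21 after 48 h of hypoxia at day 10. The difference was not tested, since each condition was 1 library, and the sign at day 8 was positive with TMM scaling (0.12) and with centring on the median of all genes (0.02). Within cell classes the day 10 log2 ratio of Cdt1 was 0.28 in mesenchymal-like cells. In endoderm-like cells it was -0.52 and in macrophage-like cells -0.69, both on fewer UMIs. At day 8 it was -0.07 in mesenchymal-like, 0.05 in endoderm-like and -0.79 in erythroid-like cells.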

How the results depend on the processing

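No paired analysis was possible because each condition was 1 library, and for the same reason no replicate could be left out. Of the medians and differences over the 40 genes, the cell classes and the other lists, that of the G1/S control list at day 10 turned sign, to 0.11 with TMM scaling. TMM scaling also turned the medians of all genes (0.10 at day 8, 0.01 at day 10 and 0.04 with age), and single genes that turned are named with their values above. TMM scaling gave medians of the 40 genes of -0.69 (day 8), -1.47 (day 10) and -0.27 (age in normoxia, 3 genes lower). Other TMM medians were -0.35 and -0.88 for other replication genes, and -0.18 and -1.04 for G2 and mitosis, at day 8 and day 10. TMM counts of lower genes were 9 for checkpoint and recombination, 2 for G1/S control and 3 for G2 and mitosis at day 8, and 4 for G1/S control at day 10. Centring gave -0.80 (day 8), -1.45 (day 10) and -1.04 (48 h over 16 h). A pseudocount of 10 CPM gave -0.61, -1.02 and -0.66 for these comparisons, and 2 genes lower with age. Keeping the 23 genes whose mean reached 20 CPM left 18 (day 8), 20 (day 10), 3 (age) and 19 (48 h over 16 h) lower, with fewer genes to count. Thinned cells gave 13 genes lower with age and a median of -0.46. Within classes, thinning gave log2 ratios of the summed genes of -1.02 and -1.53 (mesenchymal-like, day 8 and day 10), -0.16 and -1.17 (endoderm-like), -0.77 (erythroid-like, day 8) and -1.19 (macrophage-like, day 10). The difference in the share of cells with at least 10 UMIs, hypoxia minus normoxia, moved with the thinning depth by construction. It was -9.00 percentage points with 3000 UMIs per cell and -33.5 with 10000 at day 8, and -9.58 and -30.5 at day 10. With at least 5 UMIs it was -31.5 at day 8 and -30.3 at day 10. Of the values on which comparisons rest 103 moved less than the limits set and 38, all printed here, moved more. For other moves the cause was not tested. Depth limits the low genes most, since 17 of the 40 genes were under 5 CPM after 48 h of hypoxia, and the cells past 10 UMIs there were 32.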

Other observations

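Not lower by 1.5-fold at day 10 were 12 of the 46 other replication genes and 4 of the 24 checkpoint and recombination genes, where 44.1% of all genes were lower. Those named here were chosen after their values were seen. They include 5 of the 6 genes of the origin recognition complex, with day 10 log2 ratios of -0.44 (Orc1), -0.44 (Orc2), -0.54 (Orc3), -0.02 (Orc4) and -0.51 (Orc5), while Orc6 was lower (-1.45). Pold4, the smallest subunit of polymerase delta, was at 49.5 CPM after 16 h of hypoxia and 31.5 CPM in normoxia at day 8 and at 58.7 CPM after 48 h of hypoxia and 53.7 CPM in normoxia at day 10, with log2 ratios of 0.63 and 0.13. The Mcm-binding protein gene Mcmbp had log2 ratios of -0.15 and 0.27. The checkpoint kinase gene Wee1 had log2 ratios of -0.75 and 0.26.

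Because most of the 40 genes were lower and a few were not, the make-up of their RNA pool differed. Slbp held 5.69% of the UMIs of the 40 genes after 16 h of hypoxia and 4.78% in normoxia at day 8, and 8.24% after 48 h of hypoxia and 4.601% in normoxia at day 10. Rfc4 held 5.66% and 3.96% at day 8, and 7.37% and 4.18% at day 10, in the same order. Mcm6 held 3.33% and 4.28% at day 8, and 1.38% and 3.82% at day 10, while Pcna held 4.92% and 5.88% at day 8, and 4.33% and 5.12% at day 10.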
